A study of Mus musculus with 9 samples.

Results

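Genes of peroxisome assembly and peroxisomal lipid oxidation were examined in the livers of diabetic mice with steatohepatitis, of such mice treated with insulin, and of normal mice. The members were 40 named genes, 13 of which encode peroxins (Pex genes) and 27 of which encode enzymes, transporters and related proteins. They were found on the arrays by matching the RefSeq accession of each probe, without its version, to a mouse gene symbol. All 40 had a probe, with 48 probes in all, of 20972 symbols and 55681 probes on the array, and all 40 passed the filter on dim probes. Of the 40, 39 were well above background on all 9 arrays, the exception being Abcd2 on 1 Normal array.

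The samples were 9 livers of male mice at 20 weeks of age, 1 array per mouse and 3 mice per group. The STAM model combines streptozotocin, a toxin of the insulin-producing beta cells, given to neonates with a high-fat diet from 4 weeks of age, here in C57B/6 J mice. STAM-NON mice received no further treatment. STAM-INS mice were made in the same way and were injected with the long-acting analogue insulin glargine from 6 weeks of age. Normal mice received neither streptozotocin nor the high-fat diet, so that toxin and diet cannot be told apart in any comparison with them. The model is known for liver tumours, and the sources used here do not give how much tumour each piece held. RNA came from whole liver tissue, in which fewer cells of a type and less RNA per cell cannot be told apart.

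Peroxisomes are organelles bounded by a single membrane that are abundant in hepatocytes. Their matrix proteins are made in the cytosol, folded there and carried in by receptors that are then recycled, while a separate set of peroxins inserts the membrane proteins. In the liver, peroxisomes shorten very long-chain and branched-chain fatty acids and the side chains of bile acid precursors, degrade the hydrogen peroxide that this produces, and begin the synthesis of ether lipids. In rodents, many of their fatty acid enzymes are induced by ligands of the nuclear receptor PPARα.

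Values are the log2 processed signal of a probe minus the 75th percentile of its array, called the centred log2 signal, so that a difference of 1 is a 2-fold difference. Each gene was represented by its brightest tested probe. Signals of different probes depend on the probe and were not set against each other. Between 46.2% and 65.0% of spots were well above background on an array, no spot was saturated, and the number of arrays limits the precision. Calls refer to an adjusted p under 0.05 over 26278 tested probes (limma with Benjamini-Hochberg adjustment). All 6 STAM arrays lay on 1 slide and all 3 Normal arrays on the other, so slide and group cannot be told apart in either comparison with Normal. The comparison of STAM-INS with STAM-NON lies within 1 slide, but not within 1 row of it. Every STAM-NON array and STAM-INS replicate 1 lay in row 1, and STAM-INS replicates 2 and 3 lay in row 2. Every Normal array lay in row 2 of its slide, so row and group cannot be told apart in STAM-NON against Normal. Under insulin they can be told apart only in part.

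STAM-NON was compared with Normal to ask what the disease model did to these genes. Of the 40 genes, 35 had a lower mean in STAM-NON, and 8 passed the threshold downwards, which is 20% of the members beside 9.76% of all tested probes. They were Pex6 and Pex26, which recycle the import receptor, the thiolase Scp2, the alpha-oxidation lyase Hacl1, the cofactor carrier Slc25a17, catalase (Cat), the glycolate oxidase Hao1 and the ether lipid acyltransferase Gnpat. Upwards the count was 1, beside 6.3% of all tested probes. It was Abcd2, an importer of very long-chain acyl-CoA, whose probe met the filter through the STAM groups, where it was brighter, and was left out by a filter on all 9 arrays, which gave a count of 0. The median difference of the members was -0.37, and that of all tested probes was -0.13, of which 63.2% were below 0. In 19 genes, or 47.5%, all 3 STAM-NON arrays lay below all 3 Normal arrays, beside 28% of all tested probes, and in 2 genes, or 5%, all lay above, beside 13.2%. At an unadjusted p under 0.05, 17 genes were lower beside 23.2% of all tested probes, and 1 was higher beside 12.5%.

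These directions depended in part on the scaling. With arrays centred on the E1A spike-in controls, which are RNAs added in known amounts, the median of all tested probes moved from -0.13 to 0.18 and the median of the members to -0.06, with 23 of 40 genes below 0 and no gene passing downwards. The distance between both medians was -0.24 either way, as it had to be, because such centring shifts all probes of an array alike. Alternatives of centring or of the test alone cannot move this distance in any comparison. Over the 24 alternatives it ranged from -0.39 to -0.07, and the value nearest 0 was that without STAM-NON replicate 3.

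STAM-NON replicate 3 stood apart from the other 2 livers of its group for these genes. It was the lowest of the 3 STAM-NON arrays in 36 of the 40 genes, whereas it was lowest in 36.7% of all tested probes. Its median difference from the Normal mean was -0.73, beside -0.18 in replicate 1 and -0.13 in replicate 2, while the medians of all tested probes on these arrays were -0.16, -0.18 and -0.05. The 3 STAM-INS arrays lay between, at -0.53, -0.50 and -0.29. The SD among the 3 STAM-NON arrays had a median of 0.45 over the members and of 0.23 over all tested probes. In STAM-INS it was 0.18 for both, and in Normal it was 0.12 and 0.16.

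**Figure D1:**
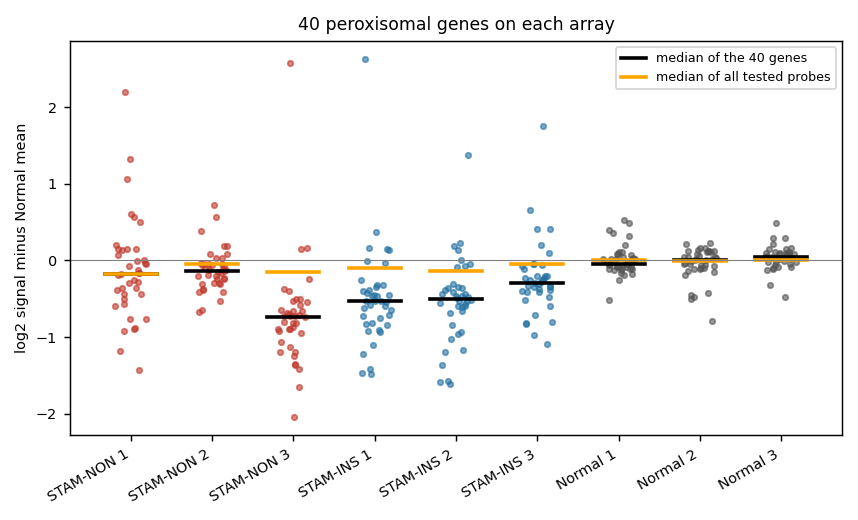
Each point is 1 of the 40 genes on 1 array, plotted as its log2 signal minus the mean of the 3 Normal arrays (vertical axis, log2 units), with a black line at the median of the 40 genes and an orange line at that of all tested probes. STAM-NON replicate 3 has the lowest black line (-0.73), far below its orange line (-0.16), and the black lines of all 3 STAM-INS arrays lie below their orange lines.

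Without STAM-NON replicate 3, the count of genes passing downwards in STAM-NON against Normal was 2 in place of 8, these being Hacl1 (-0.55, limma adjusted p 0.0423) and Hao1 (-1.04, limma adjusted p 0.0417). The share of all tested probes called lower also went down in that fit, from 9.76% to 3.95%. The number of genes below 0 was then 27, and the median of the members was -0.18 beside -0.11 for all tested probes. The count was also 1 or 2 without STAM-NON replicate 1, without any 1 of the STAM-INS arrays, and without Normal replicate 2 or 3. It was 0 without Normal replicate 1. In these fits 1.78% to 7.25% of all tested probes were called lower. Without STAM-NON replicate 2 the count rose to 11, with 9.94% of all tested probes called lower.

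**Figure D2:**
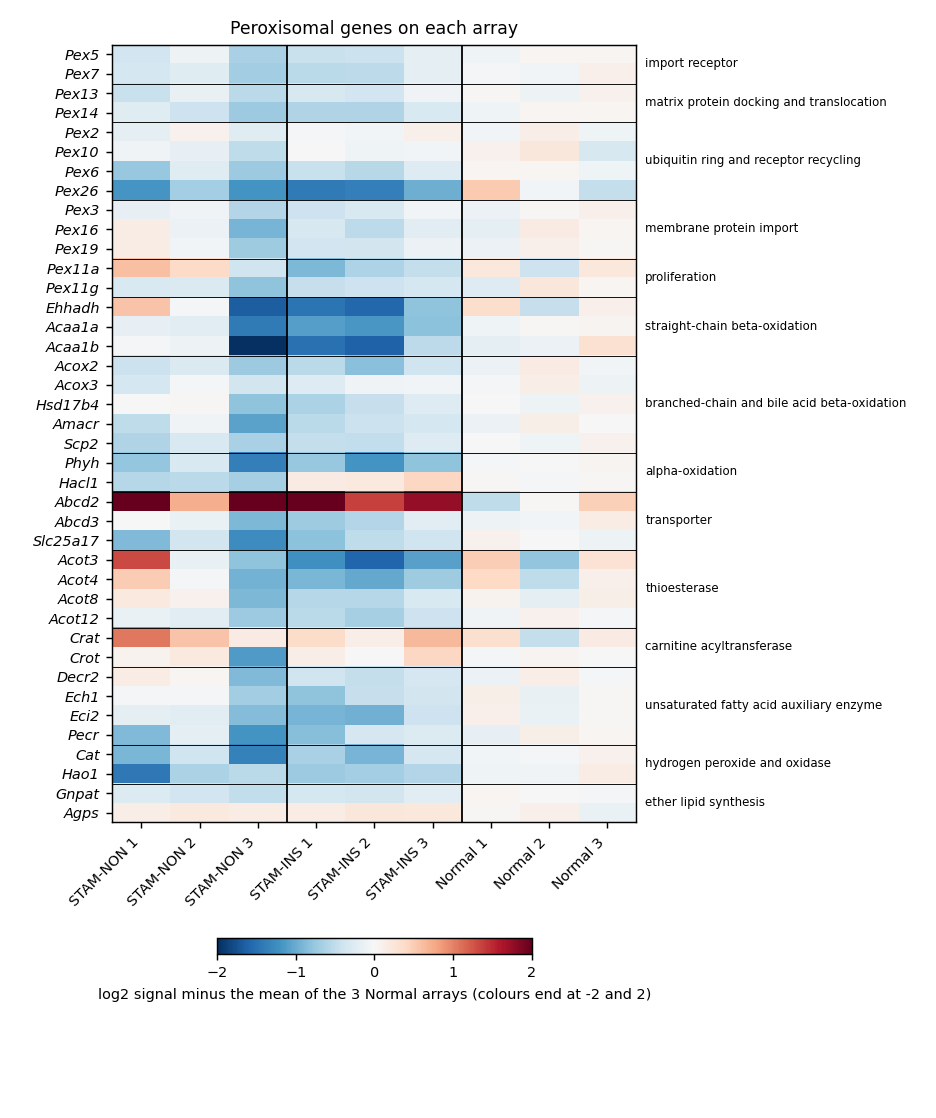
Rows are the 40 genes grouped by role and columns are the 9 arrays. Colour gives the log2 signal minus the mean of the 3 Normal arrays, from blue (lower) to red (higher). Blue fills most of the STAM-NON replicate 3 column and the STAM-INS columns, Abcd2 is red on all 6 STAM arrays, and Hacl1 is blue on the STAM-NON arrays alone.

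Insulin was tested against no treatment within the STAM model. Hacl1 was higher in STAM-INS than in STAM-NON, by 0.84 (SE 0.11) or 1.79-fold, with a limma adjusted p of 0.0466, and was the 1 gene of the 40 called higher, beside 0.0114% of all tested probes. No gene was called lower by limma, beside 0.0799% of all tested probes. At an unadjusted p under 0.05, limma gave 1 higher gene beside 4.56% of all tested probes, and 2 lower genes, or 5.0%, beside 4.23%. The methods' t-test gave 1 higher beside 3.3% of all tested probes and 0 lower beside 2.41%. The 2 lower genes by limma were Acot3, a peroxisomal thioesterase, and Pex11a, which promotes peroxisome division. Both were lower on every STAM-INS array than on every STAM-NON array. Of the 40 genes, 20 were below 0, and the median difference was -0.01 beside 0.03 for all tested probes, of which 45.1% were below 0. Without overlap between the groups, 1 gene was higher beside 7.24% of all tested probes and 2 were lower beside 4.92%. With spike-in centring 32 genes were below 0, with a median of -0.16 beside -0.12. Without STAM-NON replicate 3, 25 genes were below 0, with a median of -0.16 beside 0.01, and without STAM-INS replicate 3 the median was -0.11. The distance from the median of all tested probes ranged from -0.17 to 0.03 over the 24 alternatives.

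STAM-INS was compared with Normal to see how the insulin-treated livers stood against livers without the model. Of the 40 genes, 34 were below 0 and the median was -0.44, beside -0.09 for all tested probes, of which 59.6% were below 0. Pex26 and the alpha-oxidation hydroxylase Phyh were called lower, which is 5.0% of the members beside 8.72% of all tested probes, and Abcd2 was called higher, beside 5.16%. In 29 genes, or 72.5%, all STAM-INS arrays lay below all Normal arrays, beside 29% of all tested probes. The corresponding share above was 7.5%, beside 15.1%. At an unadjusted p under 0.05, 21 genes were lower beside 20.5% of all tested probes, and 2 were higher beside 12%. The distance between the median of the members and that of all tested probes was -0.35 and ranged from -0.43 to -0.24 over the 24 alternatives. The STAM-INS and STAM-NON comparisons with Normal share the 3 Normal arrays.

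The count called lower in STAM-INS against Normal depended on STAM-NON replicate 3 too, since all arrays share 1 estimate of the spread. Without that array it was 12 in place of 2, and the 10 added genes were Ehhadh, Acaa1a, Acaa1b, Acox2, Eci2, Ech1, Decr2, Acot8, Acot12 and Pex14. Of all tested probes 10.6% were then called lower, in place of 8.72%. The limma adjusted p of Acaa1a was then 0.00542, against 0.0565 with all arrays. The count was 0 without STAM-INS replicate 1 or 2 and without Normal replicate 1 or 2, and 1 without Normal replicate 3. In these fits 2.2% to 5.17% of all tested probes were called lower.

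**Figure D3:**
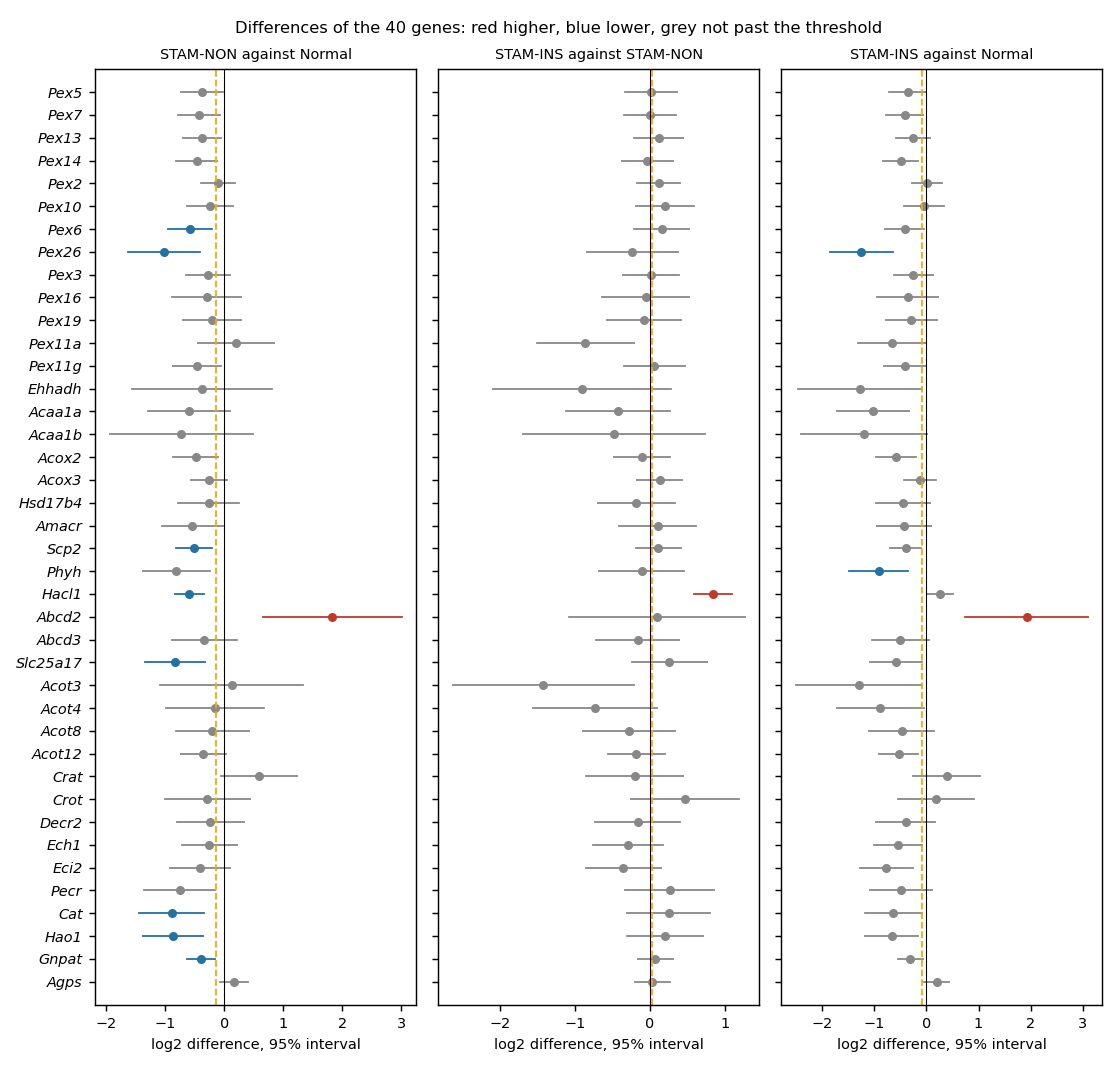
Points are log2 differences of the 40 genes in the 3 comparisons and lines are their 95% intervals. Red points are called higher, blue points lower and grey points are not past the threshold, and the dashed orange line is the median of all tested probes. In both panels against Normal most points lie left of the dashed line (median of the members -0.37 and -0.44), and in the middle panel Hacl1 stands alone in red at 0.84.

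Promoters of some of the genes that the results turn on are shown so that the sequences can be set beside their values. The RefSeq table of promoters on GRCm38.p6 held 34 of the 40 genes. Abcd2, Amacr, Crat, Hsd17b4, Pex2 and Pex19 had no entry. The windows cover the 250 bases upstream of the annotated start, 5′ to 3′ on the strand of the gene, with GC boxes, CCAAT boxes and E-boxes on either strand in capitals. Hacl1 is the gene called under insulin, Pex26 and Cat were called lower in STAM-NON on both of their probes, and Pex11a and Acot4 had among the lower insulin differences without passing.
Hacl1 (chr14:31640966-31641215, minus strand): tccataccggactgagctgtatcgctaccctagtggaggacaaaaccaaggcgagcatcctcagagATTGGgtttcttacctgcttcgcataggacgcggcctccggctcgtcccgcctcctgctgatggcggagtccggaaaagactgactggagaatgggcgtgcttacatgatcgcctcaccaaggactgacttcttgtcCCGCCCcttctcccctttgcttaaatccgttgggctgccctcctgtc
Pex26 (chr6:121183417-121183666, plus strand): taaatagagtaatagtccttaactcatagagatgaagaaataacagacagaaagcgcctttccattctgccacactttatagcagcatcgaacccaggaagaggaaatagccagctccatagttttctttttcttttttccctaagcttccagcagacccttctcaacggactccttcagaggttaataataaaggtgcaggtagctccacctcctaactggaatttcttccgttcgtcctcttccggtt
Cat (chr2:103485154-103485403, minus strand): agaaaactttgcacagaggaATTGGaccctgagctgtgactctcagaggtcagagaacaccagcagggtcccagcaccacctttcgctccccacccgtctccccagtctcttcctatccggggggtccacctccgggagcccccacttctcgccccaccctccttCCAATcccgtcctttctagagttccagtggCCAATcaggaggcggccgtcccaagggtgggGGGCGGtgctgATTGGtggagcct
Pex11a (chr7:79743132-79743381, minus strand): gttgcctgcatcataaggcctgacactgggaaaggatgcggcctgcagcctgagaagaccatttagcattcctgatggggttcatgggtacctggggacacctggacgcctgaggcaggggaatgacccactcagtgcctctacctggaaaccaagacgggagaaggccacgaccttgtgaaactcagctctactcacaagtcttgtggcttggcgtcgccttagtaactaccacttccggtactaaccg
Acot4 (chr12:84038129-84038378, plus strand): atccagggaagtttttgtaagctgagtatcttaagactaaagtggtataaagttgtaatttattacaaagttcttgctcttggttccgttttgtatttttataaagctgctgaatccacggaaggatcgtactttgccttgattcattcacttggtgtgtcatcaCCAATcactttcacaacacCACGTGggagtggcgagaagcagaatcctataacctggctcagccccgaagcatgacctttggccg

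A GC box (GGGCGG, or CCGCCC on the other strand) was found in 23 of the 34 genes, or 67.6%, beside 35.4% of the 27025 genes in the table. A CCAAT box (CCAAT or ATTGG) was found in 17 genes, or 50%, beside 37.5%. In Cat, CCAAT boxes began 230, 85, 55 and 13 bases upstream of the start and a GC box began 24 bases upstream. In Hacl1 the CCAAT box began 184 bases and the GC box 47 bases upstream, and no box was found in the windows of Pex26 and Pex11a. The E-box CACGTG was found in Acot4, 66 bases upstream, and in Gnpat, which is 5.88% of the genes beside 6.86%. A PPAR response element, written here as AGGNCA, any base and AGGNCA again, with N for any base, was found in none of the 34 windows beside 0.4% of all genes, which says only that these letters are not in these windows.

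Among the genes of peroxisome assembly, Pex6 and Pex26 were lower in STAM-NON than in Normal. Of the 13 Pex genes, 12 were below 0 in STAM-NON against Normal, with a median of -0.37, and 12 were below 0 in STAM-INS against Normal, with a median of -0.36. Under insulin, 8 of 13 were above 0 and the median difference was 0.02. Pex26 anchors the ATPase Pex6 to the membrane, in the step that pulls the import receptor out for reuse. Pex26 read 3.10, 3.60 and 3.08 in STAM-NON, 2.86, 2.91 and 3.31 in STAM-INS, and 4.81, 4.22 and 3.80 in Normal. All 6 STAM arrays lay below all 3 Normal arrays, and the STAM groups overlapped. The difference was -1.02 (SE 0.27) in STAM-NON and -1.25 (SE 0.27) in STAM-INS against Normal, with limma adjusted p of 0.0384 and 0.0221. A dimmer Pex26 probe also passed in STAM-NON, at -1.70, and gave -1.22 with a limma adjusted p of 0.087 in STAM-INS.

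Pex6 read 3.46, 3.98 and 3.49 in STAM-NON, 3.77, 3.66 and 3.97 in STAM-INS, and 4.27, 4.27 and 4.14 in Normal. Every STAM array was below every Normal array. Its difference in STAM-NON against Normal was -0.58 (SE 0.16, limma adjusted p 0.0451). A second Pex6 probe gave -0.52 and did not pass, at a limma adjusted p of 0.0929. In STAM-NON against Normal the call of Pex6 held under 7 of the 24 alternatives and in 1 of the 9 fits without 1 array, and that of Pex26 under 9 and in 2. Pex2 and Pex10, ubiquitin ligases of the same recycling step, gave -0.11 and -0.25.

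The import receptors and the docking proteins gave smaller differences of the same sign, none past the threshold. Pex7 brings in a small set of enzymes that carry an amino-terminal signal, and read 3.83, 3.94 and 3.49 in STAM-NON, 3.64, 3.65 and 3.98 in STAM-INS and 4.14, 4.13 and 4.28 in Normal. Pex14, part of the docking complex, read 2.31, 2.14 and 1.82 in STAM-NON, 1.96, 1.96 and 2.25 in STAM-INS and 2.47, 2.60 and 2.60 in Normal. Neither gene overlapped between Normal and either STAM group. In STAM-NON against Normal, Pex7 was at -0.43 and Pex14 at -0.47 (limma adjusted p 0.0873 and 0.0677), Pex5, the receptor of most matrix enzymes, was at -0.38, and the docking protein Pex13 was at -0.37. Pex3, Pex16 and Pex19 insert membrane proteins and were between -0.30 and -0.21. Of these Pex16 had the largest difference, in STAM-INS against Normal, at -0.36. It read 4.45, 4.18 and 3.38 in STAM-NON, 3.98, 3.78 and 4.07 in STAM-INS and 4.11, 4.46 and 4.34 in Normal, so that STAM-INS lay below Normal while STAM-NON overlapped both.

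The Pex11 proteins elongate and divide peroxisomes. Pex11a, whose expression is known to follow PPARα ligands, read 7.17, 6.94 and 6.17 in STAM-NON, 5.66, 5.95 and 6.08 in STAM-INS, and 6.77, 6.14 and 6.78 in Normal. Each STAM-INS array lay below each array of both other groups. Under insulin the difference was -0.86 (SE 0.28, 95% interval -1.51 to -0.21), which did not pass over all probes (limma adjusted p 0.492), and in STAM-NON against Normal it was 0.20. Pex11g gave 0.06 under insulin (interval -0.35 to 0.46) and -0.47 in STAM-NON against Normal.

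The straight-chain beta-oxidation genes were low in the 3 STAM-INS livers and in STAM-NON replicate 3, and close to Normal in the other 2 STAM-NON livers. Ehhadh is the bifunctional enzyme of the middle steps of the cycle. It read 6.57, 5.95 and 4.35 in STAM-NON, 4.54, 4.43 and 5.20 in STAM-INS, and 6.36, 5.54 and 6.09 in Normal. The spread in STAM-NON (SD 1.14, n = 3) was the largest of any member in that group. Acaa1a, a thiolase of the last step, read 8.24, 8.18 and 6.99 in STAM-NON, 7.30, 7.24 and 7.58 in STAM-INS and 8.32, 8.43 and 8.46 in Normal. Acaa1b, the related thiolase, read 7.88, 7.82 and 5.88 in STAM-NON, 6.43, 6.30 and 7.40 in STAM-INS and 7.74, 7.80 and 8.22 in Normal. In all 3 genes every STAM-INS array lay below every Normal array, as in 72.5% of the 40 genes and 29% of all tested probes. The 2 thiolases are close in sequence, and how far their probes share signal was not tested.

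None of these 3 genes passed the threshold in any comparison with all arrays. In STAM-INS against Normal, Ehhadh was at -1.28 (SE 0.52, limma adjusted p 0.13), Acaa1b at -1.21 (SE 0.53, 0.155) and Acaa1a at -1.03 (SE 0.30, 0.0565). Under insulin the differences were -0.90 for Ehhadh (95% interval -2.09 to 0.29), -0.43 for Acaa1a (interval -1.13 to 0.26) and -0.48 for Acaa1b (interval -1.69 to 0.73). Those intervals hold both 0 and falls of over 2-fold. Without STAM-NON replicate 3 the insulin difference of Ehhadh was -1.54 (limma adjusted p 0.14) and that of Acaa1a -0.84 (limma adjusted p 0.0726), and the difference of Ehhadh in STAM-NON against Normal turned from -0.37 to 0.26.

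**Figure D4:**
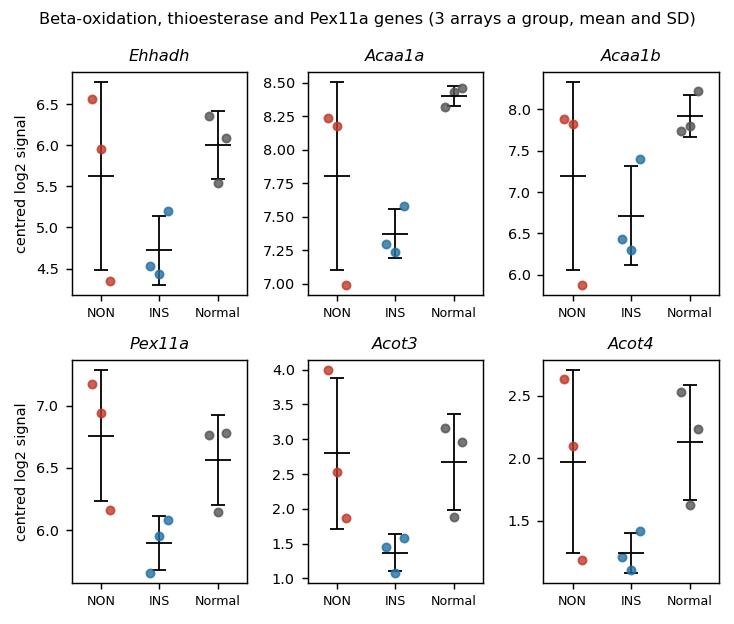
Centred log2 signal (vertical axis) of 6 genes of beta-oxidation, acyl-CoA hydrolysis and peroxisome division on the 3 arrays of each group, with the mean and SD in black. In each panel 1 STAM-NON liver, replicate 3, is the lowest of its group (4.35 in Ehhadh, 1.87 in Acot3), and all STAM-INS points of Pex11a and Acot3 lie below all points of both other groups.

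In the branched-chain and bile acid branch all 5 genes were below 0 in both comparisons with Normal, and Scp2 passed in STAM-NON. Scp2 encodes both a thiolase for branched chains and a sterol carrier. It read 8.77, 9.06 and 8.71 in STAM-NON, 8.90, 8.88 and 9.11 in STAM-INS, and 9.38, 9.27 and 9.45 in Normal. No STAM array reached the Normal range. The difference in STAM-NON against Normal was -0.52 (SE 0.13, limma adjusted p 0.0356), and a second probe passed at -0.64 (limma adjusted p 0.0444). The call held under 8 of the 24 alternatives and in 2 of the 9 fits without 1 array. Acox2, the oxidase of bile acid precursors, read 6.53, 6.67 and 6.23 in STAM-NON, 6.42, 6.12 and 6.57 in STAM-INS and 6.85, 7.13 and 6.91 in Normal, again without overlap between the STAM arrays and Normal. It was at -0.48 in STAM-NON (limma adjusted p 0.0784) and at -0.59 in STAM-INS (0.0502) against Normal. The racemase Amacr (-0.54), the multifunctional enzyme Hsd17b4 (-0.26) and the oxidase Acox3 (-0.26) missed the threshold for STAM-NON against Normal, and a second Acox3 probe gave 0.01.

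Hacl1 was lower in STAM-NON than in Normal and higher under insulin, and Phyh was lower in STAM-INS than in Normal. Alpha-oxidation removes 1 carbon from methyl-branched acids such as phytanic acid, with Phyh adding a hydroxyl group and Hacl1 cleaving the product. Hacl1 read 6.15, 6.19 and 6.06 in STAM-NON, 6.88, 6.91 and 7.14 in STAM-INS, and 6.74, 6.68 and 6.75 in Normal. The 3 groups did not overlap, with STAM-NON lowest and STAM-INS highest. Hacl1 differed by -0.59 in STAM-NON against Normal (SE 0.11, limma adjusted p 0.0161) and by 0.84 under insulin (SE 0.11, 95% interval 0.59 to 1.09). Both differences use the same 3 STAM-NON arrays, so that low values there move them in opposite directions. STAM-INS exceeded Normal by 0.25 (limma adjusted p 0.148), which did not pass. The insulin difference lay between 0.70 and 0.89 under the 24 alternatives, but its limma adjusted p ran from 0.000729 to 0.598 and passed under 7 of them. It passed in none of the 9 fits that left out 1 array.

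Phyh read 8.02, 8.49 and 7.42 in STAM-NON, 8.04, 7.60 and 7.98 in STAM-INS, and 8.75, 8.78 and 8.84 in Normal. All STAM arrays were below all Normal arrays and the STAM groups overlapped. The difference was -0.92 in STAM-INS (SE 0.25, limma adjusted p 0.0451) and -0.81 in STAM-NON (SE 0.25, limma adjusted p 0.0578) against Normal. The call in STAM-INS held under 11 of the 24 alternatives and in 2 of the 9 fits without 1 array. Under insulin the difference was -0.11, with a 95% interval of -0.68 to 0.46.

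Of the transporters, Slc25a17 was lower in STAM-NON than in Normal, and Abcd2 was a dim probe with higher values on the STAM arrays. Abcd2 read -1.50, -2.97 and -1.12 in STAM-NON, -1.06, -2.32 and -1.93 in STAM-INS, and -4.21, -3.67 and -3.21 in Normal. Every STAM array was above every Normal array, and the STAM groups overlapped. The difference was 1.83 in STAM-NON (SE 0.51, limma adjusted p 0.0463) and 1.92 in STAM-INS (SE 0.51, limma adjusted p 0.043). Abcd2 was well above background on 2 of the 3 Normal arrays, so that it met the filter only through the STAM groups, and its call is no independent sign of a difference. The size of these differences rests on dim signals, and with normexp background correction neither passed.

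Slc25a17 carries coenzyme A and other cofactors across the peroxisomal membrane. It read 3.62, 4.14 and 3.25 in STAM-NON, 3.68, 3.99 and 4.11 in STAM-INS, and 4.59, 4.51 and 4.41 in Normal, so that no STAM array reached Normal. It differed by -0.84 (SE 0.22, limma adjusted p 0.0382) in STAM-NON and by -0.58 (SE 0.22, limma adjusted p 0.109) in STAM-INS against Normal. The call in STAM-NON held under 8 of the 24 alternatives and in 2 of the 9 fits without 1 array. Abcd3, another transporter of acyl-CoA in the peroxisomal membrane, gave -0.34 and -0.50.

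**Figure D5:**
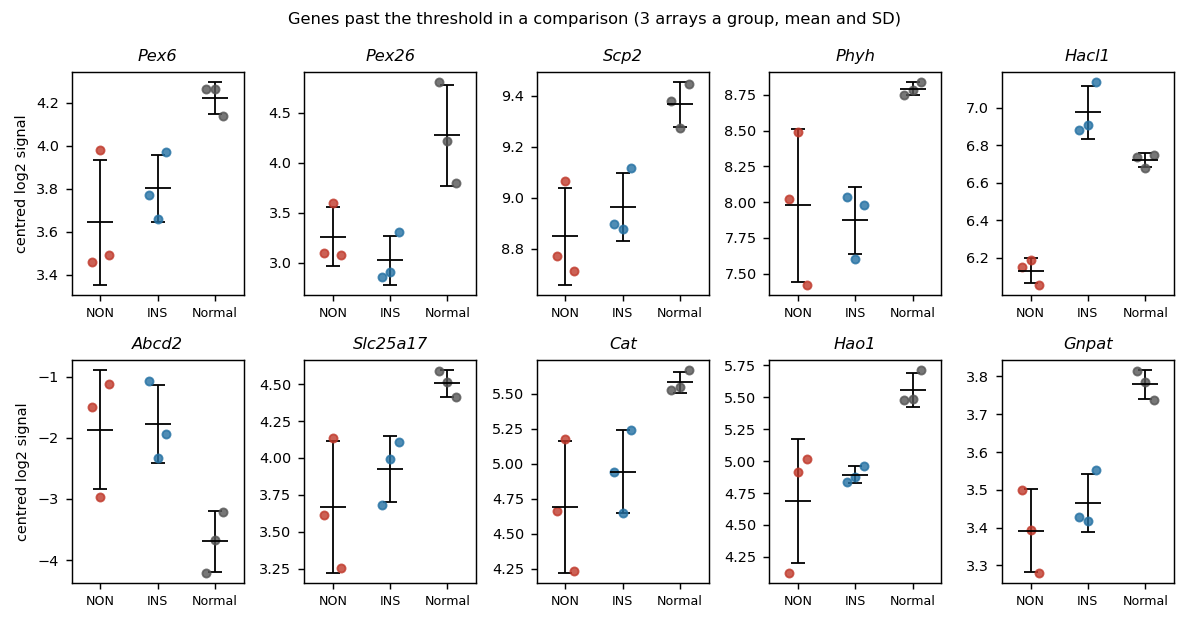
Centred log2 signal (vertical axis) of the 10 genes that passed in at least 1 comparison, on the 3 arrays of each group (NON is STAM-NON, INS is STAM-INS), with the mean and SD in black. In 9 panels the STAM-NON points lie below the Normal points, in Abcd2 they lie above, and in Hacl1 alone the STAM-INS points lie above both other groups.

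None of the acyl-CoA thioesterases passed under insulin. These enzymes release free acids from acyl-CoA. All 4 were below 0 under insulin, with a median of -0.50, beside -0.48 for the straight-chain genes (-0.87 and -1.14 without STAM-NON replicate 3), and all 4 lay without overlap below Normal in STAM-INS, as did 72.5% of the 40 genes and 29% of all tested probes. Acot3 read 3.99, 2.53 and 1.87 in STAM-NON, 1.45, 1.08 and 1.59 in STAM-INS, and 3.16, 1.89 and 2.97 in Normal. Its difference under insulin was -1.43 (SE 0.53, 95% interval -2.64 to -0.22, limma adjusted p 0.518), and a second Acot3 probe gave -1.67 (limma adjusted p 0.494). Acot4 read 2.64, 2.10 and 1.18 in STAM-NON, 1.21, 1.10 and 1.42 in STAM-INS and 2.53, 1.62 and 2.23 in Normal, and was at -0.73 under insulin (interval -1.56 to 0.10). Acot3 and Acot4 are close paralogues, and how far their probes share signal was not tested. Acot8, with broad specificity, and Acot12, which acts on acetyl-CoA in the cytosol, were at -0.28 and -0.18.

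Carnitine acyltransferases hand shortened chains on to mitochondria, and neither passed. Crat read -0.16, -0.66 and -1.07 in STAM-NON, -0.85, -1.09 and -0.57 in STAM-INS and -0.91, -1.71 and -1.06 in Normal, with all groups overlapping. It was at 0.59 in STAM-NON against Normal (limma adjusted p 0.166). Crot, which uses medium chains, was 4.85 in STAM-NON replicate 3 and between 5.94 and 6.39 on the other 8 arrays. Its insulin difference was 0.47 (95% interval -0.25 to 1.19).

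The auxiliary enzymes that prepare unsaturated acids for oxidation were all 4 below 0 against Normal in both STAM groups, with medians of -0.34 and -0.52, and none passed. Eci2, an enoyl-CoA isomerase, read 7.36, 7.34 and 6.68 in STAM-NON, 6.61, 6.58 and 7.13 in STAM-INS, and 7.65, 7.41 and 7.57 in Normal. It was at -0.77 in STAM-INS against Normal (SE 0.22, limma adjusted p 0.0529). The reductase Pecr was at -0.76 in STAM-NON (limma adjusted p 0.079), and Ech1 and Decr2 were at -0.55 and -0.40 in STAM-INS. All 4 lay below Normal on every STAM-INS array, as did 72.5% of the 40 genes and 29% of all tested probes.

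Catalase and glycolate oxidase were lower in STAM-NON than in Normal. Cat, which breaks down hydrogen peroxide, read 4.67, 5.18 and 4.24 in STAM-NON, 4.94, 4.65 and 5.24 in STAM-INS, and 5.53, 5.55 and 5.67 in Normal. It differed by -0.89 (SE 0.24, limma adjusted p 0.0419), a 1.85-fold difference, and a second probe passed at -0.91 (limma adjusted p 0.0438). Hao1, which makes hydrogen peroxide as it oxidises glycolate, read 4.13, 4.92 and 5.02 in STAM-NON, 4.83, 4.88 and 4.96 in STAM-INS, and 5.47, 5.49 and 5.71 in Normal. It differed by -0.87 (SE 0.22, limma adjusted p 0.0354). In both genes every STAM array was below every Normal array. The call of Cat held under 8 of the 24 alternatives and in 1 of the 9 fits without 1 array, and that of Hao1 under 11 and in 3. Hao1 was 1 of 4 members whose lowest STAM-NON liver was not replicate 3. Under insulin Cat was at 0.25 (95% interval -0.30 to 0.80) and Hao1 at 0.20 (interval -0.30 to 0.71), and against Normal the STAM-INS differences were -0.64 and -0.67, with limma adjusted p of 0.108 and 0.0787.

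Both enzymes that start ether lipid synthesis had small spreads and opposite signs. Gnpat read 3.50, 3.39 and 3.28 in STAM-NON, 3.43, 3.42 and 3.55 in STAM-INS, and 3.81, 3.79 and 3.74 in Normal. All STAM arrays lay below all Normal arrays. Gnpat differed by -0.39 in STAM-NON against Normal (SE 0.10, limma adjusted p 0.0411), a call that was lost in each of the 9 fits that left out 1 array, and with spike-in centring its difference was -0.08. Agps, which forms the ether bond, was at 0.16 in STAM-NON and 0.19 in STAM-INS against Normal and did not pass, although all STAM arrays lay above all Normal arrays.

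A list of 43 other peroxisomal genes, of which 38 were tested, had medians of -0.37 in STAM-NON and -0.30 in STAM-INS against Normal, with 35 and 33 of 38 below 0. In STAM-NON 4 of 38 passed downwards and none upwards. This is 10.5%, near the 9.76% of all tested probes, whereas 92.1% were below 0 beside 63.2%. They were Nudt7 (-1.77), which hydrolyses coenzyme A, the sarcosine oxidase Pipox (-0.69) and the membrane proteins Mpv17l (-1.29) and Pxmp2 (-0.73). In STAM-INS 4 passed downwards and none upwards, which is 10.5% beside 8.72% of all tested probes, with 86.8% below 0 beside 59.6%. They were Dhrs4 (-0.97), Nudt19 (-0.70), Ddo (-0.69) and Pipox (-0.60). Under insulin 24 of 38 were above 0, the median was 0.09 and none passed by limma. At an unadjusted p under 0.05 there was 1 higher and 0 lower, beside 4.56% and 4.23% of all tested probes. Acot5, a further thioesterase of the same family, read 2.45, 1.67 and -0.48 in STAM-NON, -0.35, -0.66 and 0.27 in STAM-INS and 2.62, 1.34 and 2.22 in Normal, and was at -2.31 in STAM-INS against Normal (limma adjusted p 0.0585), whereas a dimmer second probe gave -0.40.

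PPARα and 12 partners and related receptors were read in the same way. Ppara itself read 6.37, 6.41 and 5.96 in STAM-NON, 5.59, 5.36 and 5.92 in STAM-INS, and 6.31, 6.54 and 6.61 in Normal. All STAM-INS arrays lay below all arrays of both other groups. The difference was -0.86 in STAM-INS against Normal (limma adjusted p 0.0229) and -0.62 under insulin (limma adjusted p 0.473). Ppargc1b, a coactivator, was at -0.73 in STAM-NON and -1.46 in STAM-INS against Normal and passed in both. Rxra, the partner that binds DNA with PPARα, was at -0.61 in STAM-NON and passed, although a second probe gave 0.01, and the bile acid receptor Nr1h4 passed in both STAM groups (-0.46 and -0.51). Ppard passed upwards in STAM-INS against Normal, at 0.74. Against Normal, 3 of the 13 passed downwards in each STAM group, or 23.1%, beside 9.76% of all tested probes in STAM-NON and 8.72% in STAM-INS. Upwards none passed in STAM-NON, beside 6.3%, and 1 in STAM-INS, or 7.69%, beside 5.16%. None of the 13 passed under insulin by limma. At an unadjusted p under 0.05 there were 2 higher and 2 lower, or 15.4% each, beside 4.56% and 4.23% of all tested probes. Med1 was at -1.75 in STAM-NON on its brightest probe and did not pass, and its other 3 probes gave values from -0.08 to 0.29.

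Some markers of other cell types moved with the comparisons with Normal. The 8 hepatocyte markers averaged 7.68 to 8.05 in STAM-NON, 8.03 to 8.09 in STAM-INS and 8.22 to 8.27 in Normal. In STAM-NON against Normal 2 of 8, Cps1 and Asgr1, passed downwards, beside 9.76% of all tested probes. The median difference of the hepatocyte markers was -0.34 in STAM-NON against Normal, beside -0.37 for the 40 genes, and -0.25 in STAM-INS against Normal, beside -0.44. The 7 macrophage markers tested averaged 3.90 to 4.90 in STAM-NON, 3.77 to 5.02 in STAM-INS and 3.03 to 3.70 in Normal. In STAM-NON against Normal 7 of 7 were above 0 and 2 (Cd5l and Clec4f) passed upwards. There 3 of 5 cholangiocyte markers (Krt7, Sox9 and Spp1) also passed upwards. Of all tested probes 6.3% were called higher in that comparison. Of the 6 endothelial markers in STAM-NON against Normal, 3 were above 0 and 3 below, with a median of -0.02. Lyve1 alone among them passed, upwards (3.01). Of the 8 stellate cell markers 6 were above 0 and none passed by limma. At an unadjusted p under 0.05, 4 of these 8 were higher, or 50%, beside 12.5% of all tested probes. The pancreatic marker Cela1 passed upwards (2.63) and Ctrb1 downwards (-0.78), and the adipocyte marker Cfd was at 1.43 and did not pass. In STAM-INS against Normal 1 hepatocyte marker passed downwards, beside 8.72% of all tested probes. Upwards, 2 macrophage markers, 1 cholangiocyte marker and 1 pancreatic marker passed there, beside 5.16%. No other marker passed in that comparison, and none passed under insulin by limma. The 4 tested markers of T cells and neutrophils averaged 3.16 in STAM-NON replicate 3, 0.78 and 0.41 in the other STAM-NON livers, 0.72 to 1.43 in STAM-INS and -0.33 to -0.20 in Normal, while the hepatocyte markers of STAM-NON replicate 3, at 7.96, lay within the range of their group. The B cell markers, the adipocyte markers Adipoq, Lep and Plin1 and the pancreatic markers Cpa1, Pnlip and Prss2 did not pass the filter on dim probes. The part of these cell types in the differences of the 40 genes was not tested.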

How the data were processed

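Liver RNA of 9 mice was hybridised to 1-colour Agilent mouse arrays, 1 array per mouse. The deposited values were scanner intensities that the authors extracted with Agilent Feature Extraction 11.5.1.1, and their processed signal, which is background-corrected per spot, was used. Its log2 was centred on the 75th percentile of each array, spots of a probe were averaged without outlier flags, and probes were tested if at least 0.5 of their spots were well above background on all 3 arrays of a group. Differences between groups came from 1 limma fit of all 9 arrays (limma 3.58.1, R 4.3.3), with Benjamini-Hochberg adjustment over 26278 probes and a threshold of 0.05. The fit was tested on simulated data with the same spread in every group. That check does not cover the wider spread of the members in STAM-NON. Each gene was read on its brightest probe. The number of arrays limits the precision.

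Values on every array were given for genes past the threshold and for the gene with the largest difference of each role, and genes of the peroxisomal and PPARα lists could be named past the threshold or beyond 1 log2 unit. Marker genes were named where they passed in STAM-NON against Normal, as the 1 tested gene of their list, or, in part, where they were not tested. Epcam, Cd68 and Cd8a were also not tested. The 40 genes and all lists (other peroxisomal genes, PPARα partners and cell type markers) were chosen with earlier results of these data known. Alternatives changed the scaling, background correction, filter, blocks, groups fitted, test and arrays. The normexp correction used the median signal, with an offset of 50.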

Additional observations from a re-analysis of the deposited data

How the results depend on the processing

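No gene called in a comparison changed sign under any of the 24 alternatives run for it (23 for Abcd2), but most calls lay close to the threshold. With all arrays, STAM-NON against Normal gave 1 gene higher and 8 lower, STAM-INS against STAM-NON 1 higher and 0 lower, and STAM-INS against Normal 1 higher and 2 lower. The count of 0 held under all 24 alternatives, beside 0.00381% to 2.41% of all tested probes called lower. Percentages in brackets are the shares of all tested probes called in the same direction under the same setting. In STAM-NON against Normal the count of genes called higher was 0 with quantile normalisation (5.85%), the 75th percentile over detected probes (7.9%), normexp (5%) and no filter (0.28%). It was also 0 with a filter on all 9 arrays (5.78%), the slide row as a block (0.0342%) and the replicate block (3.77%). The same held with a fit of the 2 groups alone (3.9%) and the adjusted t-test (0.0304%). The count called lower was 0 with quantile normalisation (5.43%), spike-in centring (1.72%), no filter (0.169%), the slide row (0.0228%) and the adjusted t-test (0.0837%). It was 1 with the percentile over detected probes (4.05%) and the fit of 2 groups (4.39%). It was 2 with the replicate block (3.9%), 4 with median centring (6.42%) and 9 with the filter on all 9 arrays (12.4%). It was 10 with a trended and robust variance (12.2%), 11 with normexp (12.9%) and 12 with the unadjusted t-test (19.7%). In all, 15 probes were called with the slide row and 30 with the adjusted t-test. In STAM-INS against STAM-NON the count called higher was 0 with spike-in and median centring (0.00761% each), no filter (0%) and the filter on all 9 arrays (0.00877%). It was also 0 with the slide row (0.00381%), the replicate block (0%), the fit of 2 groups (0.00381%) and the adjusted t-test (0%). In STAM-INS against Normal the count called higher was 0 with spike-in centring (5.71%), normexp (4.17%), no filter (0.447%) and the filter on all 9 arrays (4.88%). It was also 0 with the slide row (3.05%), the replicate block (3.04%) and the adjusted t-test (2.72%), and 2 with the unadjusted t-test (10.8%). The count called lower was 0 with no filter (0.58%), the slide row (5.16%) and the replicate block (4.08%). It was 1 with quantile normalisation (6.69%), the percentile over detected probes (4.94%) and spike-in centring (2.7%). It was 5 with the filter on all 9 arrays (10.3%) and the adjusted t-test (8.04%), and 7 with normexp (10.1%). It was 8 with a trended and robust variance (9.83%), 17 with the fit of 2 groups (12.5%) and 26 with the unadjusted t-test (22.8%). Leaving out 1 array gave 0 to 1 higher (1.78% to 8.74%) and 0 to 11 lower (1.78% to 9.94%) in STAM-NON against Normal. In STAM-INS against STAM-NON it gave 0 higher throughout (0.00363% to 0.0796%). In STAM-INS against Normal it gave 0 to 1 higher (1.56% to 5.77%) and 0 to 12 lower (2.2% to 10.6%). Beyond fewer arrays or another set of probes, the cause was not tested. Deviations from the group means on arrays with the same replicate number correlated between -0.29 and 0.15 across groups, so the numbers were not taken to pair mice. A percentile taken without outlier spots, chosen after seeing the data, kept every count.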
